A study of Mus musculus with 25 samples.

Results

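The Hox, Sox, Nfi, Pax, Zic, Olig, Nkx, Pou, Fox and Gli transcription factors, which set the position of a cell along the body axis and its neural or glial fate, were examined in ribosome-bound RNA of astrocytes from the thoracic spinal cord of the mouse. Members were chosen by symbol alone, from a fixed pattern for these families and for Lhx, and 82 of the 12454 genes listed in any of 4 deposited count tables matched. The 82 members comprised 26 Hox, 17 Fox, 13 Sox, 7 Pou, 5 Nkx, 3 Nfi, 3 Pax, 3 Zic, 3 Gli and 2 Olig genes, and no Lhx gene was listed. The Nkx matches include Nkx2-2os, an antisense RNA that overlaps Nkx2-2, and reads of the pair may not be told apart. Every table had been filtered separately, so that 69 members of 10568 genes were listed in the WT table, 75 of 11712 in the Stat3cKO table, 53 of 8052 in the Smarca4cKO LPS table and 77 of 11115 in the Smarca4cKO SCI table. A set of 53 members was listed in all 4 tables, among 7834 genes.

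The 25 libraries fell into 7 groups. Smarca4cKO animals carried GfapCre, Ribotagfl/fl and Smarca4fl/fl. They were sampled 14 days after a spinal cord injury (SCI; 4 libraries), 24 h after 5 mg/kg of intraperitoneal lipopolysaccharide (LPS; 3 libraries) or uninjured (3 libraries). Stat3cKO animals carried GfapCre, Ribotagfl/fl and Stat3fl/fl. They were sampled after the same LPS treatment (4 libraries) or uninjured (3 libraries). WT animals carried GfapCre and Ribotagfl/fl with neither floxed gene, and were likewise sampled after LPS (4 libraries) or uninjured (4 libraries). SCI was a complete crush at the lower thoracic level, taken with the tissue next to the lesion, and no SCI library of WT or Stat3cKO animals was analysed here. Every group, controls included, expresses Cre from the Gfap promoter and a tagged ribosomal protein in the cells where Cre acted, and polyadenylated RNA was taken from ribosomes pulled down by the tag. Stat3 encodes a transcription factor activated by cytokines, and Smarca4 encodes an ATPase that moves nucleosomes as part of BAF complexes. The labels give strain C57BL6 for WT and Stat3cKO animals and C57BL6;129S2 for Smarca4cKO animals, so Smarca4 genotype and strain cannot be told apart. Ages are not given in the sources used here, and the labels do not say whether a library is 1 animal or a pool.

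Hox genes lie in 4 clusters, a to d, and their paralog groups are numbered along each cluster in the order in which they are used from the hindbrain to the tail. Cells of the thoracic cord keep expression of the middle paralog groups into adult life. Sox9, Nfia and Nfib act in the start of gliogenesis and in astrocyte formation, Sox2 is kept in astrocytes and neural stem cells, and Olig1, Olig2, Nkx2-2 and Sox10 act in oligodendrocyte lineage cells. Gli1, Gli2 and Gli3 carry the Hedgehog signal to the genome, and Foxj1 directs the making of motile cilia in ependymal cells.

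Library totals ranged between 52433934 and 106513035 counts. The deleted genes were checked first. Smarca4 measured 11.95 to 21.3 CPM (counts scaled to a library of 1000000) in Smarca4cKO SCI libraries, 0.0166, 50.0 and 5.70 CPM in Smarca4cKO LPS libraries, 12.7 to 21.8 CPM in Smarca4cKO uninjured libraries, 66.2 to 124.0 CPM in WT LPS libraries and 64.0 to 90.3 CPM in WT uninjured libraries. The library labelled Smarca4cKO LPS 2, with 3664 Smarca4 counts, thus stood near the WT range. Stat3 measured 92.8 to 322.2 CPM in the libraries labelled Stat3cKO LPS against 176.8 to 515.7 CPM in WT LPS libraries, which overlap, and 8.61 to 21.6 CPM in Stat3cKO uninjured libraries against 100.9 to 153.2 CPM in WT uninjured libraries. Which exons were deleted is not given in the sources used here, so reads outside the deleted part may count in these totals. The 12 astrocyte markers chosen for this work summed to between 43050 and 101700 CPM in the 25 libraries and all were listed. The 12 oligodendrocyte markers summed to 28430 to 39110 CPM in Smarca4cKO SCI libraries, and to 5187 to 12890 CPM over the other groups (11 of them listed in the Smarca4cKO LPS table).

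In uninjured WT astrocytes the members ranged from among the most abundant RNAs of the table to the least. Levels of different genes were compared as CPM per kilobase of exon. Olig1, an oligodendrocyte lineage factor, was the highest member at 494.7 ± 78.1 CPM per kb (SD, n = 4), at the 99.1 percentile of the genes in the WT table. Nfix, a nuclear factor I protein of glial and neural progenitors, followed at 184.7 ± 34.3 CPM per kb, and Sox2 at 115.4 ± 14.9 CPM per kb. The median over the 69 listed members was 5.89 CPM per kb, beside 8.56 CPM per kb over the 10129 genes with a known exon length.

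The positional code of the libraries was carried by the middle paralog groups. Hoxc8, a lower-thoracic Hox factor, was the highest Hox gene in uninjured WT libraries at 92.8 ± 26.8 CPM per kb (SD, n = 4), at the 93.9 percentile of genes. Hoxb6 had 38.0 ± 8.67, Hoxc6 32.3 ± 8.46, Hoxb8 28.6 ± 13.2, Hoxa7 25.1 ± 8.07, Hoxc9 22.3 ± 2.84 and Hoxd8 18.9 ± 7.86 CPM per kb. Hoxc8 averaged well above the others, while neighbours in the order of the other 6 did not differ beyond their spread between libraries. Hoxc10 had 10.9 ± 4.30 CPM per kb and Hoxb2, a hindbrain-range gene, 2.57 ± 3.09 CPM per kb. No Hox gene of paralog groups 11, 12 or 13 was listed in any table, and the only listed gene of group 1 was Hoxd1, in the Smarca4cKO SCI table.

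**Figure D1:**
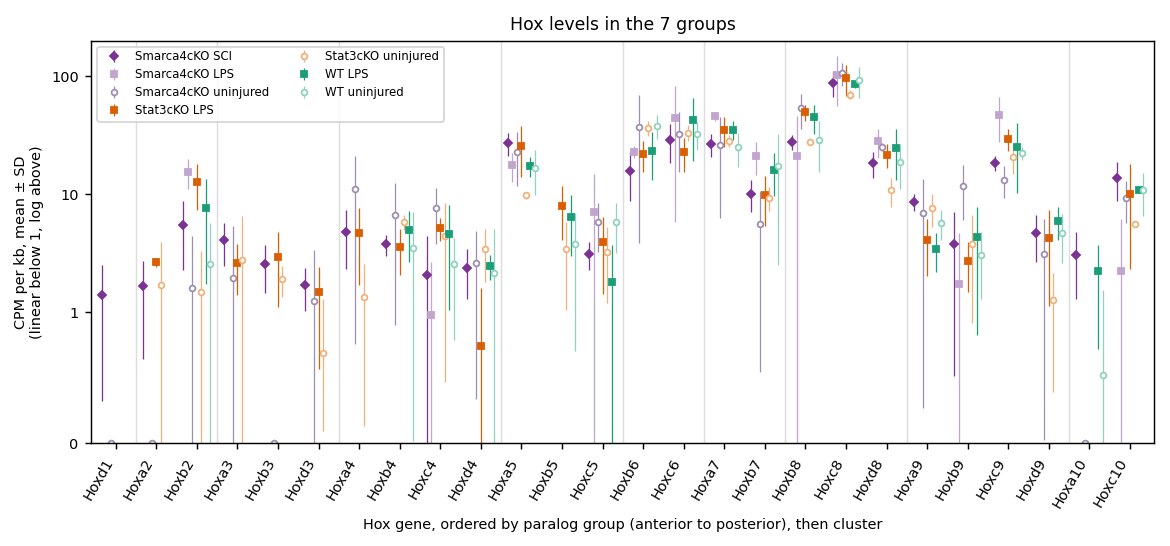
Mean levels of the listed Hox genes in CPM per kilobase of exon, by paralog group, with 1 point per group and bars of 1 SD between libraries; the axis is logarithmic above 1 and linear below it. Hoxc8 is the highest Hox gene in uninjured WT libraries, at 92.8 CPM per kb. For many genes the bars of some groups stand apart. Hoxb8, for example, has 49.6 ± 7.51 CPM per kb in Stat3cKO LPS and 27.9 ± 0.977 in Stat3cKO uninjured libraries.

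Paralog group 8 held the largest mean share of Hox RNA in each of the 7 groups. Over the 14 Hox genes listed in all 4 tables, group 8 held 46.2 ± 3.15% of the summed CPM per kb in Smarca4cKO SCI libraries (SD, n = 4), 39.9 ± 1.80% in Smarca4cKO LPS libraries (n = 3), 51.9 ± 3.99% in Smarca4cKO uninjured libraries (n = 3), 48.3 ± 4.72% in Stat3cKO LPS libraries (n = 4), 41.0 ± 1.41% in Stat3cKO uninjured libraries (n = 3), 46.1 ± 7.23% in WT LPS libraries (n = 4) and 43.9 ± 4.57% in WT uninjured libraries (n = 4). The group 8 share was not constant. It ran from 43.1 to 54.6% in Stat3cKO LPS against 39.4 to 42.0% in Stat3cKO uninjured libraries. In Smarca4cKO LPS libraries it ran from 38.8 to 42.0%, against 47.3 to 54.2% in Smarca4cKO uninjured libraries. Neither pair overlapped, while the WT LPS and Smarca4cKO SCI shares overlapped those of their uninjured libraries. Other paralog groups varied too. Paralog group 6 held 12.9 ± 1.96% in Stat3cKO LPS libraries (SD, n = 4) against 26.3 ± 1.02% in Stat3cKO uninjured libraries (SD, n = 3), and no library of one group reached the other. Mean shares ran between 0.414 and 4.71% for paralog group 2, 8.40 and 18.9% for paralog group 7 and 0.525 and 4.95% for paralog group 10. The mean paralog number, weighted by CPM per kb, was 7.28 ± 0.074 in Smarca4cKO SCI, 7.13 ± 0.167 in Smarca4cKO LPS, 7.30 ± 0.046 in Smarca4cKO uninjured, 7.24 ± 0.146 in Stat3cKO LPS, 7.22 ± 0.107 in Stat3cKO uninjured, 7.29 ± 0.158 in WT LPS and 7.27 ± 0.051 in WT uninjured libraries. The 7 means thus lay between 7.13 and 7.30, with overlapping spreads. The share of cluster c was less even, with 32.9, 63.5 and 55.5% in the 3 Smarca4cKO LPS libraries against 46.4, 63.3 and 41.3% in the 3 Smarca4cKO uninjured libraries. No test was run on these shares, which describe the libraries.

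Summed Hox RNA had a wide spread between libraries of a group. The 14 genes summed to 289.1 ± 43.3 CPM per kb in Smarca4cKO SCI, 378.1 ± 120.2 in Smarca4cKO LPS, 357.6 ± 79.3 in Smarca4cKO uninjured, 347.7 ± 62.0 in Stat3cKO LPS, 265.3 ± 2.02 in Stat3cKO uninjured, 343.5 ± 69.6 in WT LPS and 317.1 ± 81.1 in WT uninjured libraries. The lowest of the 4 Stat3cKO LPS sums, 301.2 CPM per kb, was above the highest of the 3 Stat3cKO uninjured sums, 267.6 CPM per kb. In the other pairs of challenged and uninjured groups the sums overlapped.

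The glial fate factors were present in every group. Sox9, a factor for astrocyte specification, measured 184.8 to 321.2 CPM in Smarca4cKO SCI, 200.2 to 768.4 CPM in Smarca4cKO LPS, 189.3 to 219.7 CPM in Smarca4cKO uninjured, 379.9 to 670.1 CPM in Stat3cKO LPS, 350.9 to 369.8 CPM in Stat3cKO uninjured, 181.9 to 768.6 CPM in WT LPS and 257.3 to 369.9 CPM in WT uninjured libraries. Nfia, which acts with Sox9 in glial progenitors, measured 97.2 to 213.2 CPM over the 10 Smarca4cKO libraries, 229.2 to 438.8 CPM over the 7 Stat3cKO libraries and 159.9 to 335.5 CPM over the 8 WT libraries. Nfib lay between 116.2 and 329.5 CPM in all 25 libraries. None of Sox9, Nfia, Nfib, Nfix, Olig1, Olig2, Sox2 and Pax6 passed an adjusted p of 0.05 in any of the 9 comparisons by edgeR's quasi-likelihood test, which gave every adjusted p below unless DESeq2 is named.

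**Figure D2:**
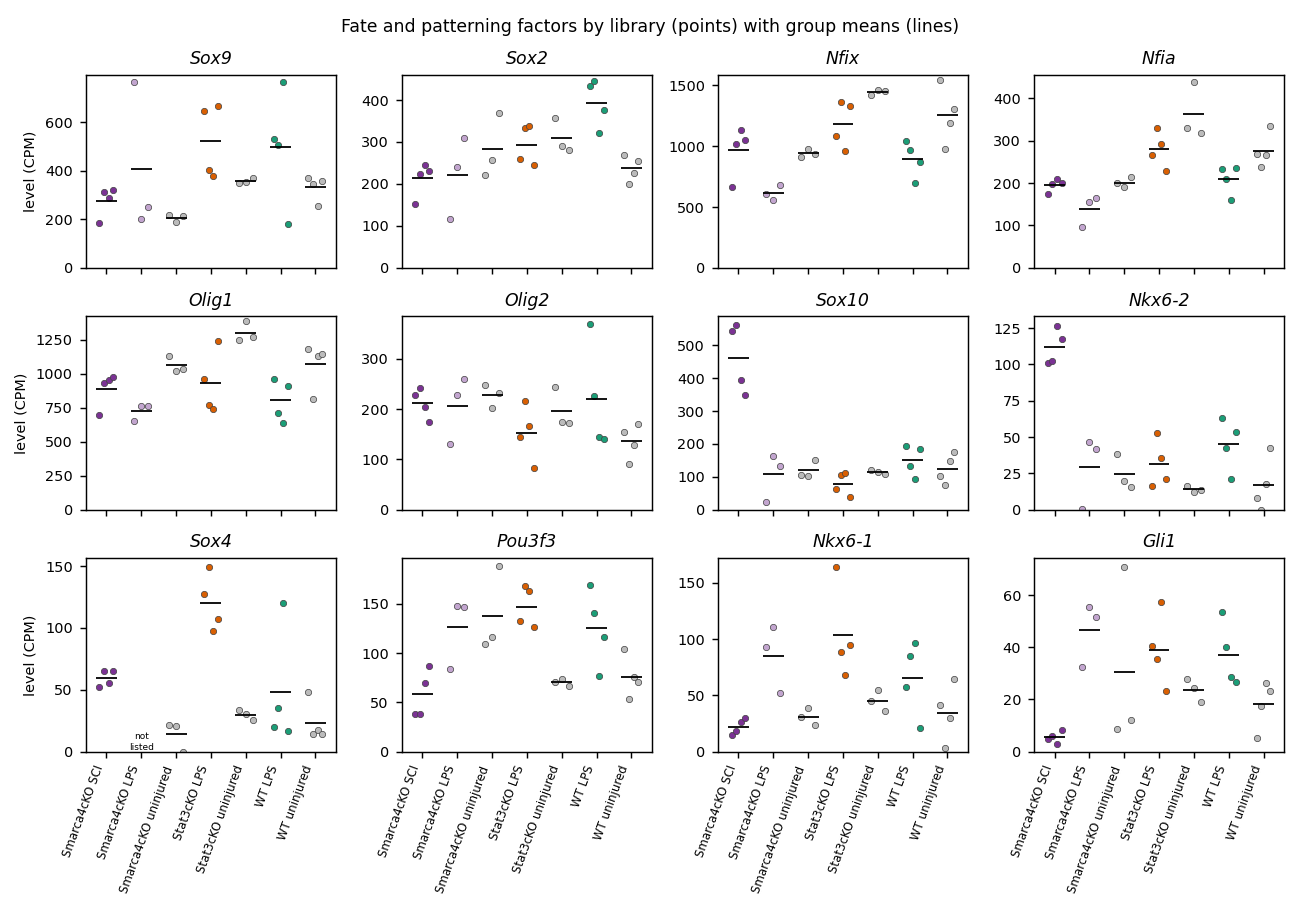
Levels in CPM of 12 fate and patterning factors by group, with 1 point per library and lines at the group means (Sox4 was not listed for Smarca4cKO LPS). Sox9 spans 181.9 to 768.6 CPM among WT LPS libraries, and the 4 Smarca4cKO SCI libraries of Sox10 lie between 348.3 and 561.0 CPM, above all others.

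LPS given to WT animals addressed how these factors respond to systemic inflammation when both deleted genes are intact. In RNA pooled from many cells, fewer cells of a type and less RNA per cell cannot be told apart. None of the 69 tested members passed adjusted p under 0.05 by edgeR (8 had an unadjusted p under 0.05, as 13.8% of all genes did), beside 2.54% of all 10566 genes tested in either direction. DESeq2 called 2 members, Sox2 and Foxp4. Shares of all genes called are edgeR's, here and below, so counts by DESeq2 have no background beside them. Sox2 measured 432.6, 444.4, 320.9 and 376.2 CPM in WT LPS libraries, and 268.4, 199.7, 226.5 and 255.3 CPM in WT uninjured libraries. The groups did not overlap, and the log2 difference was 0.70 ± 0.18 (SE) with an adjusted p of 0.0692 by edgeR and 0.00282 by DESeq2. Foxp4, a forkhead repressor, measured 66.2, 50.9, 130.1 and 46.3 CPM in WT LPS libraries and 37.8, 19.9, 11.7 and 24.6 CPM in WT uninjured libraries. These groups also did not overlap, with a log2 difference of 1.61 ± 0.42 and an adjusted p of 0.0692 by edgeR and 0.0115 by DESeq2. Groups did not overlap for 3 members, the third being Nfia, and for 11.2% of all genes. Of the 69 members, 44 had a log2 difference above 0 and their median was 0.35, beside 49.7% of genes and a median of -0.005 over all genes.

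LPS in Stat3cKO animals gave 10 called members of 75, 9 higher and 1 lower, which is 13.3% beside 10.6% of all 11709 genes tested (7.12% higher and 3.44% lower). At an unadjusted p under 0.05 there were 21 members, beside 24.1% of genes. That share is near the background and says nothing particular of the family. The higher members were the neural progenitor factors Sox4 and Pou3f3, the Hox genes Hoxb8, Hoxd8 and Hoxa5, the ventral cord homeobox genes Nkx2-2 and Nkx6-1, Pax2 of spinal interneurons, and Foxo1, a target of insulin signalling. The lower one was Sox8, a SoxE factor of glia.

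Sox4 showed the clearest difference among them. Sox4 measured 127.2, 148.9, 97.5 and 107.1 CPM in Stat3cKO LPS libraries, and 33.3, 30.4 and 25.6 CPM in Stat3cKO uninjured libraries. The groups were far apart, with a log2 difference of 2.03 ± 0.23 and an adjusted p of 0.000403. In WT animals Sox4 measured 19.99, 35.2, 120.3 and 16.8 CPM after LPS, and 48.4, 14.0, 17.3 and 14.5 CPM uninjured, which overlapped (log2 difference 1.00 ± 0.63, adjusted p 0.579). The difference between the responses of Stat3cKO and WT animals was itself not called, at 0.99 ± 0.76 on the log2 scale (adjusted p 0.777).

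Pou3f3, a POU factor of neural progenitors, measured 132.3, 167.7, 162.9 and 126.6 CPM in Stat3cKO LPS libraries, and 70.4, 74.0 and 67.0 CPM in Stat3cKO uninjured libraries. No library of one group reached the other, and the log2 difference was 1.08 ± 0.18 with an adjusted p of 0.00458. In WT libraries Pou3f3 measured 169.4, 140.7, 77.1 and 116.6 CPM after LPS and 104.5, 53.3, 75.7 and 70.4 CPM uninjured (log2 difference 0.70 ± 0.29, adjusted p 0.281). Sox4 and Pou3f3 passed in all 7 fits that left out 1 Stat3cKO library, with highest adjusted p of 0.00405 and 0.0280.

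Hoxb8 measured 156.2, 130.7, 107.9 and 128.3 CPM in Stat3cKO LPS libraries and 76.2, 71.0 and 73.4 CPM in Stat3cKO uninjured libraries. The groups did not overlap (log2 difference 0.84 ± 0.19, adjusted p 0.0165). Hoxd8 differed by 1.02 ± 0.29 (adjusted p 0.0469) and Hoxa5 by 1.42 ± 0.39 (adjusted p 0.0454) on the log2 scale, while Hoxc8, the most abundant Hox gene, differed by 0.48 ± 0.23 (adjusted p 0.231). Over the 24 Hox genes tested, 3 were higher (beside 7.12% of all genes) and 0 lower (beside 3.44%), and the median log2 difference was 0.50, beside -0.01 over all genes. Each of the 3 calls was lost in some fit that left out 1 library: Hoxb8 in 3 of 7 fits, Hoxd8 in 5 and Hoxa5 in 6. Nkx2-2 differed by 1.00 ± 0.27 (adjusted p 0.0399), Nkx6-1 by 1.22 ± 0.31 (adjusted p 0.0314) and Foxo1 by 0.83 ± 0.23 (adjusted p 0.0437). Pax2 had 1117 counts over the 4 Stat3cKO LPS libraries and 2 counts over the 3 Stat3cKO uninjured libraries, a depth-scaled ratio of 457.8 with a 95% Clopper-Pearson interval of 126.4 to 3785. Pax2 thus passed the filter only through the LPS libraries and had to differ, so its call lends no weight to the count of higher members. Both uninjured counts lay in library 3, so that library moves the ratio. The fitted log2 difference of Pax2 was 11.18 without it and 8.72 with it, and its call was lost without uninjured library 1 or 2 (adjusted p 0.0684 and 0.0576). Intervals and floors of this kind cover counting error alone, because reads were counted without molecular identifiers. Sox8 measured 48.2, 137.3, 146.1 and 74.4 CPM in Stat3cKO LPS libraries and 201.8, 244.7 and 267.7 CPM in Stat3cKO uninjured libraries (log2 difference -1.22 ± 0.34, adjusted p 0.0445).

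The 8 calls other than Sox4 and Pou3f3 were each lost when some single library was left out, with highest adjusted p between 0.0638 (Hoxb8) and 0.171 (Foxo1). The count of called members was 2, 3 and 4 without Stat3cKO uninjured library 1, 2 or 3, and 5 and 6 without Stat3cKO LPS library 1 or 2. The share of all genes called in these fits is not given. These counts therefore do not show whether members lost calls more often than other genes. Summed neuron markers (14 of 15 listed) were 774.6 to 1035 CPM in Stat3cKO LPS libraries against 412.6 to 471.4 CPM in Stat3cKO uninjured libraries. The 12 oligodendrocyte markers summed to 9838 to 12890 CPM in Stat3cKO LPS against 6045 to 7835 CPM in Stat3cKO uninjured libraries, and macrophage markers (3 of 6 listed) to 15.5 to 31.1 CPM against 1.73 to 13.3 CPM. Other lists were lower after LPS. The 8 oligodendrocyte progenitor markers summed to 745.4 to 1046 CPM in Stat3cKO LPS against 1117 to 1202 CPM in Stat3cKO uninjured libraries, the 7 Schwann cell markers to 751.9 to 1962 CPM against 2118 to 2703 CPM, and fibroblast and meningeal markers (6 of 8 listed) to 211.4 to 246.0 CPM against 267.9 to 349.2 CPM. None of these sums overlapped between the groups, and their part in these results was not tested.

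The promoters of Sox4, Pou3f3 and Hoxb8 and of Nkx6-2, which is described with the injury, are shown because Sox4, Pou3f3 and Nkx6-2 were called in every fit that left out 1 library, and Hoxb8 was called in both comparisons, in opposite directions. They were chosen after their values were seen. Sequences are RefSeq, build GRCm38.p6, the 250 bases before each annotated start, 5′ to 3′ on the gene's strand, with CG dinucleotides in capitals. Sox4 is chr13:28953700-28953949 on the minus strand, Pou3f3 chr1:42695518-42695767 on the plus strand, Hoxb8 chr11:96281655-96281904 on the plus strand and Nkx6-2 chr7:139582798-139583047 on the minus strand.
Sox4: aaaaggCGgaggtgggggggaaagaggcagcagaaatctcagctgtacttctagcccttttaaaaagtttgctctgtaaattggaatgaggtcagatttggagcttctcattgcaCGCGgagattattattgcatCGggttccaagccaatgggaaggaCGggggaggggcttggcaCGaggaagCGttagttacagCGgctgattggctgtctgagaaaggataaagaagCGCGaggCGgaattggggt
Pou3f3: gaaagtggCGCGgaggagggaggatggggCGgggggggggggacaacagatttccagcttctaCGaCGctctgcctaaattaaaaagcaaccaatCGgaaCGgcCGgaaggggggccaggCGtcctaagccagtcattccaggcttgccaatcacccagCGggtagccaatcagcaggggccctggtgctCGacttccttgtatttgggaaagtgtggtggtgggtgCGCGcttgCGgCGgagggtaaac
Hoxb8: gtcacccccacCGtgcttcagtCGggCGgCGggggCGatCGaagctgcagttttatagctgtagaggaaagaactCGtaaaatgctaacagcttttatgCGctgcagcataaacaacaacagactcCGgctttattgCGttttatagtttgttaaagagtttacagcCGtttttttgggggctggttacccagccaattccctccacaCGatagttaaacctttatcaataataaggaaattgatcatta
Nkx6-2: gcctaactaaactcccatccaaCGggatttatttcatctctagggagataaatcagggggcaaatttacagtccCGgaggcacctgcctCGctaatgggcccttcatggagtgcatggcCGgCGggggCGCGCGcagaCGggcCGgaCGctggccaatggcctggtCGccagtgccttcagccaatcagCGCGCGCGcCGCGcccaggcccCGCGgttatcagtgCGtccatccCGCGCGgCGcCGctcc
These windows hold 11 CG dinucleotides in Sox4, 15 in Pou3f3, 12 in Hoxb8 and 26 in Nkx6-2. Their GC content is 50.8% in Sox4, 60.8% in Pou3f3, 44.4% in Hoxb8 and 65.2% in Nkx6-2. Promoters were found for 54 members, some with several windows, with a median GC content of 62.1% beside 52.4% over 27018 genes, and a median observed over expected CpG ratio of 0.726 beside 0.379. On either strand, the STAT-type motif TTCNNNGAA was in at least 1 window of 7 of the 54 members (13.0%) and of 8.13% of all genes, and in none of the 4 windows printed. Counted the same way, the GC box GGGCGG was found for 35 members (64.8%) beside 35.4% of all genes, the TATAAA motif in 6 (11.1%) beside 14.3%, the Sox-type motif AACAAT in 5 (9.26%) beside 10.9%, and the Gli-type motif GACCACCCA in 0 beside 0.255%. The background is every gene with a promoter sequence, listed in the counts or not, while the members are all among the 12454 listed genes. These shares and medians therefore do not set the family apart from other listed genes. A match is a run of letters and not a shown site.

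Stat3 dependence was tested as the difference between the LPS responses of Stat3cKO and WT animals. Stat3 RNA in Stat3cKO LPS libraries, at 92.8 to 322.2 CPM, overlapped the 176.8 to 515.7 CPM of WT LPS libraries. How far Stat3 was lost in the LPS arm is thus not known from these values, and the test is read with that limit. None of 68 members passed by edgeR (8 had an unadjusted p under 0.05, as did 9.28% of genes), beside 0.377% of 10341 genes, and DESeq2 called 1, Pax2. Sox2 had the smallest p of the members, with a difference of -0.78 ± 0.25 on the log2 scale (adjusted p 0.237). Its response was -0.06 ± 0.17 in Stat3cKO animals and 0.70 ± 0.18 in WT animals. Olig2, which specifies oligodendrocyte lineage cells and motor neurons, differed by -1.04 ± 0.46 (adjusted p 0.484), and Hoxa5 by 1.39 ± 0.54 (adjusted p 0.391). Without a challenge, none of 67 members differed between Stat3cKO and WT animals by edgeR (6 had an unadjusted p under 0.05, as did 6.7% of genes, and DESeq2 called 0), beside 0.0777% of 10301 genes. Gfap itself, the promoter of which drives Cre, was lower in those Stat3cKO libraries, at 5418 ± 269.9 CPM (SD, n = 3) against 19490 ± 2911 CPM in WT libraries (SD, n = 4), with an adjusted p of 5.055e-05.

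**Figure D3:**
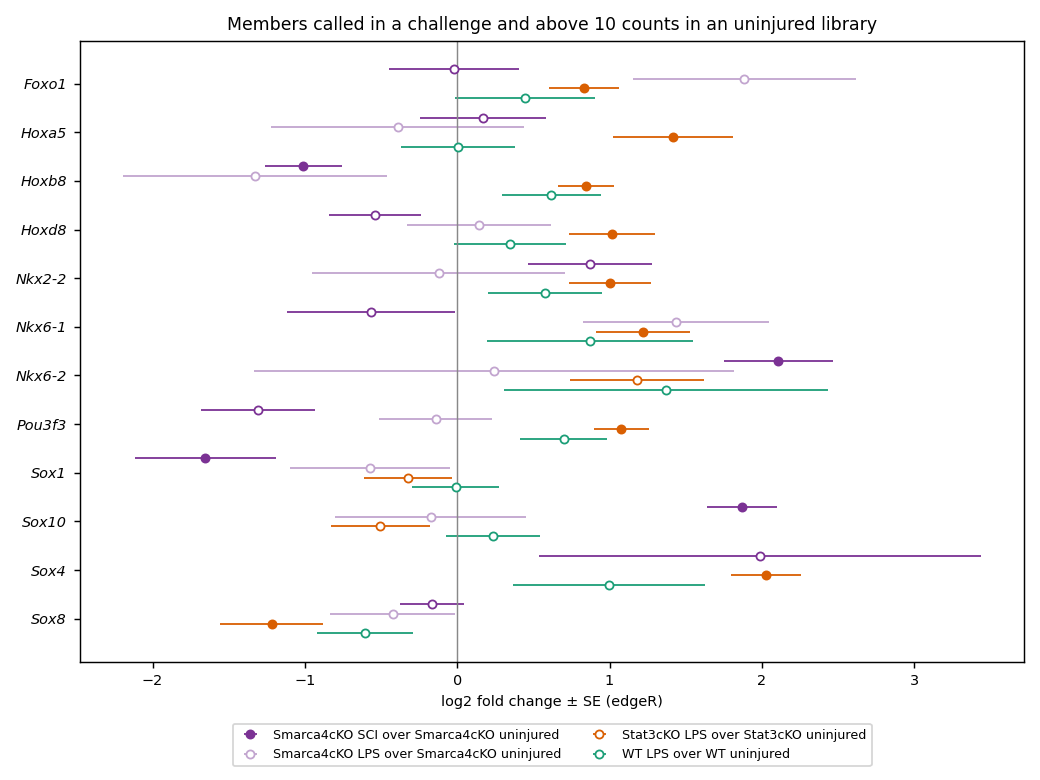
Log2 fold changes (x axis, bars of 1 SE) of the 12 members called after a challenge with more than 10 counts in an uninjured library, in 4 comparisons; filled points passed an adjusted p of 0.05. Sox4 lies at 2.03 in Stat3cKO LPS and Sox10 at 1.87 in Smarca4cKO SCI, and no WT LPS or Smarca4cKO LPS point is filled.

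LPS in Smarca4cKO animals was the comparison with the least even libraries. None of 53 members passed by edgeR (5 had an unadjusted p under 0.05, as did 5.82% of genes), beside 0.0249% of 8040 genes, and DESeq2 called 4: Hoxc9, Foxo1, Nfix and Olig1. Hoxc9, a lower-thoracic Hox factor, measured 64.1, 155.1 and 117.1 CPM in Smarca4cKO LPS libraries, and 26.6, 25.7 and 42.2 CPM in Smarca4cKO uninjured libraries. The groups did not overlap (log2 difference 1.82 ± 0.56, adjusted p 0.420 by edgeR and 0.0152 by DESeq2). Nfix measured 609.6, 559.5 and 679.1 CPM in Smarca4cKO LPS libraries and 908.3, 975.4 and 938.8 CPM in Smarca4cKO uninjured libraries (log2 difference -0.61 ± 0.17, adjusted p 0.310 by edgeR and 0.00595 by DESeq2). Olig1 measured 654.4, 765.1 and 760.6 CPM in Smarca4cKO LPS libraries and 1135, 1018 and 1034 CPM in Smarca4cKO uninjured libraries (log2 difference -0.55 ± 0.16, adjusted p 0.357 by edgeR and 0.0188 by DESeq2). For Nfix and Olig1, too, every LPS library lay below every uninjured one.

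Many members were near zero in some Smarca4cKO libraries and abundant in others of the same group. Of the 53 members listed in all 4 tables, 11 (20.8%) had 10 counts or fewer in Smarca4cKO LPS library 1 and 10 (18.9%) in library 2, against 1 in library 3. Over all 7834 genes the shares were 11.7% and 14.4% in libraries 1 and 2. Every library of the other groups had 0 to 4 such members. Foxj1, for example, had 4, 3964 and 10341 counts in the 3 Smarca4cKO LPS libraries, Hoxc6 had 7, 8139 and 11366, and Hoxb6 had 8208, 1 and 10299 in the 3 Smarca4cKO uninjured libraries. A gap from 10 counts or fewer to 500 or more within 1 group was found for 15 of 53 members (28.3%; 21.2% of genes) in Smarca4cKO LPS and 17 of 77 (22.1%; 29.6% of genes) in Smarca4cKO uninjured libraries. In WT uninjured libraries the gap was found for 7 of 69 members (10.1%; 9.80% of genes). What produced these gaps was not tested.

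**Figure D4:**
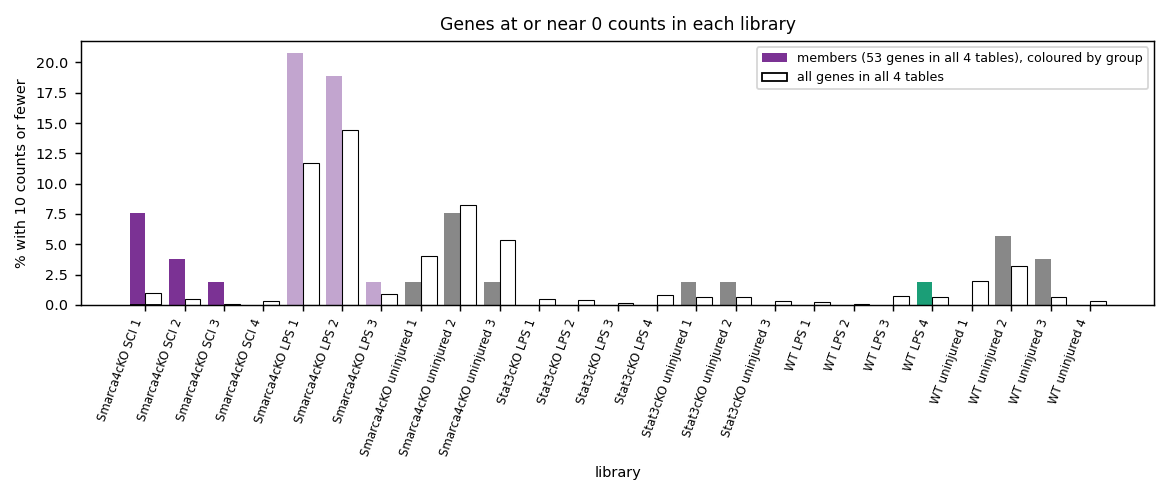
Percent of members and of all genes listed in all 4 tables with 10 counts or fewer, by library. Smarca4cKO LPS libraries 1 and 2 hold 20.8% and 18.9% of members at this level (filled bars), beside 11.7% and 14.4% of all genes (open bars).

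Smarca4cKO LPS library 2, at 50.0 CPM of Smarca4, stood near the WT range. With it included, Smarca4 dependence of the LPS response could be tested for 53 members. None passed by edgeR (3 had an unadjusted p under 0.05, as did 4.75% of genes, and DESeq2 called 0), beside 0.316% of 7919 genes. The members with the smallest p were Sox2, with a difference of -1.10 ± 0.40 on the log2 scale (adjusted p 0.698), Hoxc9 with 1.63 ± 0.64 (adjusted p 0.768) and Hoxb8 with -1.99 ± 0.90, which did not pass either. Hoxb8 measured 24.8, 10.6 and 132.0 CPM in Smarca4cKO LPS libraries and 188.7, 94.99 and 139.2 CPM in Smarca4cKO uninjured libraries. Its value turned on library 3, and without that library 6 members were called lower, Hoxb8 among them. The others were Hoxc10, Hoxb9, Pou3f1, Hoxc4 and Foxn2, each with 0 to 4 counts in Smarca4cKO LPS libraries 1 and 2. The share of all genes called in that fit is not given. Without library 1, 1 member was called, Zic2, which had 1 and 3 counts in libraries 2 and 3. Without library 2 alone, no member was called. The share of all genes called is not given for these fits either. Without libraries 1 and 2 together, an alternative chosen after seeing the data, 0 members were called in the 3 comparisons that use Smarca4cKO LPS libraries. That fit leaves 1 Smarca4cKO LPS library, assumed to vary like the other groups, so its count says nothing of stability.

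Uninjured Smarca4cKO and WT libraries gave 0 called members of 62 by edgeR, beside 0.0102% of 9838 genes. Of the members, 9 had an unadjusted p under 0.05, as did 9.61% of genes. DESeq2 called 6 members, but these shares are edgeR's and none is given for DESeq2. Sox9 measured 219.7, 189.3 and 213.1 CPM in Smarca4cKO uninjured libraries and 369.9, 345.9, 257.3 and 357.1 CPM in WT uninjured libraries. The groups did not overlap, with a log2 difference of -0.65 ± 0.18 and an adjusted p of 0.186 by edgeR and 0.0141 by DESeq2. Olig2 measured 246.7, 202.9 and 231.2 CPM in Smarca4cKO uninjured libraries against 154.0, 90.8, 128.2 and 170.9 CPM in WT uninjured libraries (log2 difference 0.77 ± 0.23, adjusted p 0.239 by edgeR and 0.0165 by DESeq2). The others called by DESeq2 were Pou3f3 and Pou6f1, which were higher, and Pax3 and Sox3, which had 0 to 3 counts per Smarca4cKO uninjured library. Groups did not overlap for 11 of the 62 members, and for 13.3% of all genes.

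Spinal cord injury in Smarca4cKO animals gave the largest number of called members. Of 77 members, 14 were higher and 2 lower in Smarca4cKO SCI than in Smarca4cKO uninjured libraries, which is 20.8% beside 14.5% of 11109 genes (10.1% higher and 4.31% lower). At an unadjusted p under 0.05 there were 22 members, beside 22.4% of genes. DESeq2 called 21, 14 higher and 7 lower. The 5 it added were all lower: Sox6 (log2 difference -0.87, adjusted p 0.00881), Pou3f3 (-1.30, 0.00366), Foxo4 (-1.33, 0.0229), Gli1 and Gli3. Only 4 of the 16 rested on ample counts in both groups: Sox10 and Nkx6-2, which were higher, and Hoxb8 and Sox1, which were lower. The other 12 had 10 counts or fewer in each of the 3 uninjured libraries. A gene in that state passes the filter only through the SCI libraries, so it had to differ, and the count lends no weight to a change of the family. Among all 1127 genes called higher, 828 (73.5%) had the same state, against 112 of 834 (13.4%) in the Stat3cKO LPS comparison.

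Sox10, a SoxE factor of oligodendrocyte lineage cells and Schwann cells on chromosome 15, measured 542.4, 561.0, 393.2 and 348.3 CPM in Smarca4cKO SCI libraries, and 106.7, 101.6 and 151.3 CPM in Smarca4cKO uninjured libraries. The lowest SCI library was well above the highest uninjured one, and the log2 difference was 1.87 ± 0.23 (adjusted p 0.00393). Nkx6-2, a homeobox gene of myelinating oligodendrocytes, measured 101.0, 102.4, 126.7 and 117.3 CPM in Smarca4cKO SCI libraries, and 38.7, 19.9 and 15.9 CPM in Smarca4cKO uninjured libraries. These groups also stood apart (log2 difference 2.11 ± 0.36, adjusted p 0.00652). Both passed in all 7 fits that left out 1 library, with highest adjusted p of 0.0181 and 0.0233. Olig1 and Olig2, which also act in the oligodendrocyte lineage, differed by -0.33 ± 0.15 (adjusted p 0.256) and -0.17 ± 0.15 (adjusted p 0.686). Sox8, the SoxE relative of Sox10, differed by -0.17 ± 0.21 (adjusted p 0.822).

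Marker sums of several cell types also differed between Smarca4cKO SCI and Smarca4cKO uninjured libraries. The 12 oligodendrocyte markers summed to 28430 to 39110 CPM in Smarca4cKO SCI against 6565 to 12890 CPM in Smarca4cKO uninjured libraries, with none at 0 in all libraries of a group. The 8 oligodendrocyte progenitor markers summed to 1514 to 1838 CPM against 1075 to 1199 CPM, and the 6 listed of 7 Schwann cell markers to 1348 to 2849 CPM against 628.3 to 831.4 CPM. The 12 astrocyte markers summed to 43050 to 58460 CPM in Smarca4cKO SCI against 66890 to 69880 CPM in Smarca4cKO uninjured libraries. Their part in the difference of Sox10 or Nkx6-2 was not tested. Pericyte markers (4 of 6 listed) summed to 142.5 to 203.8 CPM in Smarca4cKO SCI against 16.8 to 73.2 CPM in Smarca4cKO uninjured libraries, macrophage markers (3 of 6 listed) to 236.5 to 946.0 CPM against 12.8 to 89.7 CPM, and ependymal markers (5 of 10 listed) to 81.3 to 105.6 CPM against 0.0112 to 48.6 CPM, with Dynlrb2, Mia and Tekt1 at 0 in the uninjured libraries. Markers at 0 in the uninjured libraries were listed only through the SCI libraries, so they had to differ. In WT uninjured libraries the Schwann cell markers summed to 1146 to 3725 CPM and ependymal markers (7 of 10 listed) to 71.2 to 166.3 CPM. Both ranges take in those of the SCI libraries. For oligodendrocyte, oligodendrocyte progenitor, pericyte and macrophage markers, the WT uninjured sums all lay below the SCI sums. The part of these lists in the injury results was not tested either. None of these marker lists holds a member.

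**Figure D5:**
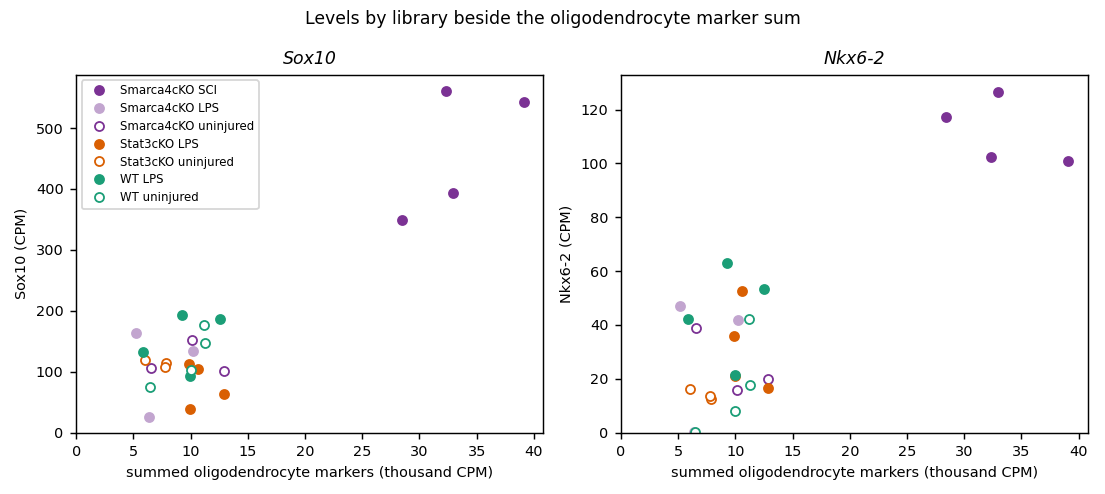
Levels of Sox10 (left) and Nkx6-2 (right) in CPM against the summed CPM of oligodendrocyte markers, with 1 point per library; filled points are challenged and open points uninjured. The 4 Smarca4cKO SCI libraries lie at 348.3 to 561.0 CPM of Sox10 and 28430 to 39110 CPM of the markers, above the other groups on both axes (Smarca4cKO LPS sums use 11 markers).

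Hoxb8 and Sox1 were the lower members. Hoxb8 measured 58.6, 75.5, 82.9 and 75.6 CPM in Smarca4cKO SCI libraries and 188.7, 94.99 and 139.2 CPM in Smarca4cKO uninjured libraries. The groups did not overlap (log2 difference -1.01 ± 0.25, adjusted p 0.0310), although the call was lost in 6 of the 7 fits that left out 1 library. Sox1, a SoxB1 factor of neural progenitors, measured 14.5, 28.7, 40.7 and 17.2 CPM in Smarca4cKO SCI libraries and 56.2, 80.4 and 90.4 CPM in Smarca4cKO uninjured libraries. These groups did not overlap either (log2 difference -1.65 ± 0.46, adjusted p 0.0495), and the call was lost in 5 of the 7 fits. The highest adjusted p came without Smarca4cKO SCI library 4, at 0.0939 for Hoxb8 and 0.137 for Sox1. Hoxc8 differed by -0.32 ± 0.23 (adjusted p 0.563) and Hoxc6 by -0.26 ± 0.51 (adjusted p 0.921).

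The 12 members near zero in uninjured Smarca4cKO libraries held few CPM after injury as well. Nkx2-9, a homeobox gene of the ventral neural tube, was the most abundant, with 58.6, 19.9, 19.8 and 14.0 CPM in Smarca4cKO SCI libraries and 1 count over the 3 Smarca4cKO uninjured libraries, a ratio of 7647 (95% interval 1372 to 302100). That count lay in uninjured library 2, and SCI library 1 held 6573 of its 10859 counts. Sox3, a SoxB1 progenitor factor, had a ratio of 1889 (646.2 to 9162), Hoxa10 of 1154 (319.1 to 9529), Pax3 of 838.0 (150.1 to 33130), Hoxb3 of 578.9 (225.9 to 2126) and Pou2f2 of 235.7 (80.4 to 1145). The 3 uninjured counts of Sox3 lay in library 1, and 4685 of its 8047 SCI counts in SCI library 1. Single libraries move these ratios: the fitted log2 difference was 14.23 without uninjured library 2 and 12.18 with it for Nkx2-9, 11.11 and 9.05 for Pax3 likewise, and 13.78 without uninjured library 1 and 10.62 with it for Sox3. All 3 calls held in each fit that left out 1 library. These genes passed the filter only through the SCI libraries and had to differ, so this says nothing of stability. The 6 members at 0 counts in all 3 uninjured libraries were at least 934.1-fold higher for Foxd3, 634.1-fold for Nkx2-2os, 518.8-fold for Foxc1, 309.4-fold for Foxd1, 235.5-fold for Hoxd1 and 226.5-fold for Hoxa2, against a floor of 3 counts over the uninjured group. These bounds rest on counts pooled over the 4 SCI libraries, and single libraries differ. Foxd1 had 460, 12, 264 and 582 counts in SCI libraries 1 to 4. SCI library 1 held 597 of 1003 Hoxd1 counts, and SCI library 4 held 1986 of 3979 Foxd3 counts. Foxd3 acts in the neural crest, and Foxc1 in meninges and pericytes. Fibroblast and meningeal markers (7 of 8 listed) summed to 581.0 to 1025 CPM in Smarca4cKO SCI against 210.1 to 352.2 CPM in Smarca4cKO uninjured libraries, with Lum at 0 in the 3 uninjured libraries, and their part in these values was not tested.

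Some of these members were not near zero in uninjured cord of the other genotypes. Pax3 measured 11.9, 15.0 and 12.5 CPM in Stat3cKO uninjured libraries and 4.24, 6.95, 6.87 and 13.4 CPM in WT uninjured libraries. Its level in Smarca4cKO SCI libraries, 1.35 to 5.30 CPM, was below most of these. Sox3 measured 6.40, 4.63 and 13.7 CPM in Stat3cKO uninjured libraries and 11.8, 0.0121, 0.0399 and 8.68 CPM in WT uninjured libraries. Hoxb3 measured 8.74, 4.90 and 6.44 CPM in Stat3cKO uninjured libraries, beside 3.33 to 12.2 CPM in Smarca4cKO SCI libraries. Foxc1, Foxd1, Foxd3, Foxm1, Hoxd1 and Nkx2-9 were listed in the Smarca4cKO SCI table alone.

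SCI and LPS in Smarca4cKO animals were compared through a fit over both tables, which share the uninjured libraries. None of 53 members passed by edgeR (10 had an unadjusted p under 0.05, as did 13% of genes), beside 3.78% of 7969 genes, and DESeq2 called 6. Sox10 measured 542.4, 561.0, 393.2 and 348.3 CPM in Smarca4cKO SCI libraries and 24.8, 163.7 and 133.3 CPM in Smarca4cKO LPS libraries. The groups did not overlap, with a log2 difference of 2.10 ± 0.52 and an adjusted p of 0.0520 by edgeR and 7.485e-05 by DESeq2, and the call was made by edgeR without Smarca4cKO LPS library 1 (adjusted p 0.0154). Nkx6-1, which patterns the ventral cord, measured 14.5, 18.4, 26.6 and 29.5 CPM in Smarca4cKO SCI libraries and 93.0, 110.8 and 51.8 CPM in Smarca4cKO LPS libraries (log2 difference -1.93 ± 0.51, adjusted p 0.0657). The time after the challenge also differs between these groups and cannot be told apart from its kind.

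The Gli factors did not pass edgeR's test after injury, while DESeq2 called Gli1 (log2 difference -2.58, adjusted p 0.0219) and Gli3 (-1.60, adjusted p 0.00269) lower. Gli1, a target and effector of the pathway, measured 4.73, 5.95, 3.04 and 8.26 CPM in Smarca4cKO SCI libraries, 32.5, 55.6 and 51.7 CPM in Smarca4cKO LPS libraries and 8.64, 70.8 and 12.1 CPM in Smarca4cKO uninjured libraries. The SCI libraries lay below both other groups, and the log2 difference from uninjured was -2.59 ± 1.00 (adjusted p 0.165). Gli3, mainly a repressor, differed by -1.61 ± 0.57 (adjusted p 0.126) and Gli2 by -1.56 ± 1.07 (adjusted p 0.525). In the list of other Hedgehog genes, which like the other lists was chosen with earlier results known, 0 of 11 tested rose (beside 10.1% of all genes) and 2 fell (beside 4.31%) after SCI, with a median log2 difference of -0.58 beside 0.067 over all genes. Ptch1, the receptor, averaged 68.7 ± 27.6 CPM in Smarca4cKO SCI libraries (SD, n = 4) and 319.9 ± 48.5 CPM in Smarca4cKO uninjured libraries (SD, n = 3), a log2 difference of -2.28 ± 0.36 (adjusted p 0.00652). Hhip, a Hedgehog-binding inhibitor, averaged 11.7 ± 4.22 CPM in Smarca4cKO SCI libraries and 51.9 ± 24.0 CPM in Smarca4cKO uninjured libraries (log2 difference -2.23 ± 0.59, adjusted p 0.0404). No gene of this list was called in any other comparison.

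Other fate factors that the symbol rule does not cover were read from a list of 44 genes. After SCI in Smarca4cKO animals, 2 of 29 tested rose (beside 10.1% of all genes) and 4 fell (beside 4.31%). Myrf, the myelin gene regulator of oligodendrocytes, averaged 309.9 ± 52.5 CPM in Smarca4cKO SCI libraries (SD, n = 4) and 56.4 ± 27.1 CPM in Smarca4cKO uninjured libraries (SD, n = 3), a log2 difference of 2.39 ± 0.33 (adjusted p 0.00598). It moved with the same oligodendrocyte marker sums as Sox10, and it was also higher in SCI than in LPS libraries (2.32 ± 0.55, adjusted p 0.0429). Prox1 rose out of 0 to 3 counts per uninjured library, so it passed the filter only through the SCI libraries and had to differ. The genes that fell were Rfx4 (-1.27 ± 0.15, adjusted p 0.00303), Npas3 (-2.05 ± 0.36, adjusted p 0.00665), Rorb (-1.40 ± 0.26, adjusted p 0.00730) and Sall3 (-2.03 ± 0.56, adjusted p 0.0487), on the log2 scale.

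After LPS in Stat3cKO animals, 1 of 32 tested genes of that list rose (beside 7.12% of all genes) and 2 fell (beside 3.44%). Hopx, a homeodomain protein that does not bind DNA, averaged 526.6 ± 63.9 CPM in Stat3cKO LPS libraries (SD, n = 4) and 186.7 ± 35.4 CPM in Stat3cKO uninjured libraries (SD, n = 3), a log2 difference of 1.51 ± 0.18 (adjusted p 0.000564). In WT libraries Hopx averaged 219.8 ± 48.1 CPM after LPS and 298.3 ± 87.2 CPM uninjured (SD, n = 4 each). The responses of the genotypes differed by 1.96 ± 0.32 (adjusted p 0.0115), and Hopx was the only gene of these lists called for Stat3 dependence. Sall1 fell by 1.02 on the log2 scale (adjusted p 0.0432), and Hes5, a Notch target, had 0 or 1 counts per Stat3cKO LPS library against 574 to 1489 in Stat3cKO uninjured libraries. Hes5 thus passed the filter only through the uninjured libraries and had to differ. Polycomb and trithorax genes keep Hox genes silent or active, and among them Phc2 rose after LPS in Stat3cKO animals, by 1.37 ± 0.18 on the log2 scale (adjusted p 0.00101). Cbx7 fell after SCI in Smarca4cKO animals (-1.86 ± 0.40, adjusted p 0.0153). Of 9 Hox cofactors tested after SCI, 1 was called higher (beside 10.1% of all genes), Pbx4, out of 0 to 2 counts per uninjured library. Pbx4 likewise passed the filter only through the SCI libraries and had to differ. No other cofactor was called in any comparison. No noncoding Hox neighbour was called either, but of the 13 in that list only 2 were tested after SCI and 1 in each other comparison.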

How the data were processed

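Ribosome-bound polyadenylated RNA of Gfap-Cre cells was sequenced by the submitters, and STAR 2.4.0j, HTSeq 0.6.0, edgeR 3.28.0 and build mm10 are named per the submitters' processing notes, without their roles. The files deposited by the authors hold raw counts per gene and library in 4 separately filtered tables, with the authors' log2 fold changes and p-values. From the counts, edgeR 4.0.16 (R 4.3.3, limma 3.58.1) was run on each table with TMM scaling, the filterByExpr filter and the quasi-likelihood test, and p-values were adjusted over all genes tested (Benjamini-Hochberg, threshold 0.05). The SE is the log2 difference divided by the root of F. Comparisons across tables (uninjured genotypes, differences between LPS responses, SCI over LPS) were fitted on genes shared by the tables. CPM values use TMM factors over the 7834 genes in all 4 tables and 25 libraries, and exon lengths are GENCODE M21. A count of 10 or fewer was called near zero. The procedure was checked on simulated data.

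The members and lists were chosen with earlier results of these data known. Named genes are every member past the threshold in any of 9 comparisons, the 3 highest per family, the highest Hox gene of each paralog group, a fixed list of fate factors, and list genes past the threshold, of which 1 is not reported here. Genes called by DESeq2 alone or with the smallest p were named after their values were seen. Groups came from the labels. Where the labels do not give separate animals, p-values measure the spread between these samples only. Alternatives were DESeq2 1.42.0, other size factors, no filter and leaving out each library. In the authors' deposited table, 2 members were up at FDR under 0.05 for WT LPS, 11 up and 2 down for Stat3cKO LPS, 0 for Smarca4cKO LPS, and 14 up and 2 down for SCI.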

Additional observations from a re-analysis of the deposited data

Results flagged for a closer look

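Of 178 combinations of a named member and a group of 4 libraries, 14 held 1 library far from the other 3, by a gap over Dixon's 95% critical value for the group's range. Chance alone gives such a gap in about 1 in 20 groups. In Smarca4cKO SCI libraries these were Nkx2-9 in library 1 at 58.6 CPM, Olig1 in library 1 at 699.3 CPM and Pax6 in library 4 at 56.5 CPM. In Stat3cKO LPS libraries they were Hoxa7 in library 2 at 124.9 CPM, Hoxc6 in library 3 at 53.3 CPM and Pou3f1 in library 1 at 78.8 CPM. In WT LPS libraries they were Hoxc9 in library 2 at 112.4 CPM, Nkx2-2 in library 4 at 58.1 CPM and Pax6 in library 4 at 47.0 CPM. In WT uninjured libraries they were Gli2 at 4.95 CPM, Hoxa10 at 6.47 CPM and Sox4 at 48.4 CPM in library 1, Olig1 at 818.1 CPM in library 2 and Zic1 at 25.2 CPM in library 4.

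Pou3f1, a POU factor of neural progenitors and Schwann cells, had differences of opposite sign after LPS in the knockouts, and neither passed edgeR's test. Its log2 difference from uninjured libraries was -2.83 ± 2.46 (adjusted p 0.998) in Smarca4cKO and 1.502 ± 0.47 (adjusted p 0.0693) in Stat3cKO animals, with no overlap between LPS and uninjured libraries in either genotype. Pou3f1 measured 0.0166, 0.0136 and 9.24 CPM in Smarca4cKO LPS libraries, the first with 1 count, so that value rests on libraries 1 and 2 described above. The difference between the genotypes was not tested.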

How the results depend on the processing

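Among the 26 called differences of single members, 14 Hox values and 9 counts that were refitted, none changed direction under an alternative run. DESeq2 called 2 members for WT LPS, 4 for Smarca4cKO LPS, 6 for uninjured Smarca4cKO against WT, 1 for Stat3 dependence and 6 for SCI over LPS in Smarca4cKO, where edgeR called 0 in each. For Stat3cKO LPS and for SCI, DESeq2 called 12 and 21. The share of all genes that DESeq2 called is not given, so these counts alone do not set the members apart. Leaving out 1 library at a time gave 2 to 9 called members for Stat3cKO LPS, 14 to 21 for SCI, 0 to 6 for Smarca4 dependence and 0 to 6 for SCI over LPS, where the 6 came without Smarca4cKO LPS library 3, and 0 in the other comparisons. Some members called without Smarca4cKO LPS library 3 had 0 to 4 counts in libraries 1 and 2, as described above. The share of all genes called in the fits without 1 library is not given either, so those counts do not set the members apart. The cause of these changes was not tested. With DESeq2-type size factors the Hox sum of Stat3cKO uninjured libraries was 261.5 CPM per kb, and Sox1 after SCI was no longer called (log2 difference -1.65, adjusted p 0.0503). Of 182 single calls refitted without 1 library, 47 were lost. No paired analysis was possible because the library numbers used here follow accession order and only name a library, and no label pairs libraries across groups. Counts of 0 limit the near-zero members to lower bounds or wide intervals.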
